A study of Arabidopsis thaliana with 6 samples.

Results

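Arabidopsis genes for iron uptake, iron transport and the regulation of iron deficiency were followed in shoot apices after sodium nitroprusside (SNP). The set holds 34 genes listed by their known roles, with earlier results of these data known, of 24340 genes in the deposited expression table. They comprise 17 regulators and 17 genes of reduction, chelation and transport. Of the 34, 31 have values, 19 passed the filter on low values, 12 lay below it, and the expression of *BHLH38*, *BHLH100* and *NAS2* was not analysed here.

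The study sequenced polyadenylated RNA from micro-dissected shoot apices of *ap1/cal* plants in the Col-0 background, taken from inflorescences at 6 weeks. Both groups carried the *ap1* and *cal* mutations, and both were treated for 24 h in 0.025% Silwet, a wetting agent. The 3 Mock samples received no SNP and the 3 SNP samples received 1 mM SNP. The study describes the samples of each group as biological replicates, and the labels do not say whether they came from separate plants, so p-values measure the spread between these samples. The *ap1/cal* mutant over-produces inflorescence and young floral meristems and stands in for a meristem that is small in wild-type plants. SNP is a compound of iron, cyanide and nitric oxide that is used as a nitric oxide donor. There was no group treated with iron or cyanide alone, so the effects of these parts of the molecule cannot be told apart.

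In Arabidopsis, roots reduce ferric iron at the cell surface with FRO2 and import ferrous iron with IRT1, and both genes are switched on by FIT together with basic helix-loop-helix (bHLH) proteins of subgroup Ib. Proteins of subgroup IVc, with BHLH121 of subgroup IVb, activate the Ib genes when iron is low. The hemerythrin ligase BTS targets IVc proteins for degradation, and the short IRON MAN (IMA) peptides counter BTS. Inside the plant iron moves bound to citrate, which FRD3 exports, or to nicotianamine, whose metal complexes are carried by YSL transporters.

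The IMA genes are shown by sequence because they had reads in every Mock sample and in no SNP sample. Their coding sequences were read from the TAIR10.1 reference (RefSeq), 5′ to 3′ on the plus strand, from the start to the stop codon. Capitals mark the last 54 bases, which encode the end of the peptide and the stop codon.
IMA1: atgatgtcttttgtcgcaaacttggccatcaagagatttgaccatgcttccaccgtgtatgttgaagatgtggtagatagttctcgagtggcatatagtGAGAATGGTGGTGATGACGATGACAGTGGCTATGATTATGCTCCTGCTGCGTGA
IMA2: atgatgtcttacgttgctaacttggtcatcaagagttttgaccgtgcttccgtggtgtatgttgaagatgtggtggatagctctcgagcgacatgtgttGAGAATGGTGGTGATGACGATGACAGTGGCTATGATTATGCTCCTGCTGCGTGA
IMA3: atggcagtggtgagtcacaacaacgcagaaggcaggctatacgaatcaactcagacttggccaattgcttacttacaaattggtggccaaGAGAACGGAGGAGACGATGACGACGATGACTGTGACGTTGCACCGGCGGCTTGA
*IMA1* (AT1G47400) lies at chr1:17385818-17385970, *IMA2* (AT1G47395) at chr1:17383117-17383269 and *IMA3* (AT2G30766) at chr2:13108068-13108211. The capital stretch is identical in *IMA1* and *IMA2*, and *IMA3* matches it at 37 of 54 bases. Over the aligned coding sequence, gaps left out, *IMA1* and *IMA2* were 88.9% identical (136 of 153 bases, 0 gaps). *IMA1* and *IMA3* were 69.9% identical (86 of 123 bases, 51 gap positions), and *IMA2* and *IMA3* 60.7% (82 of 135 bases, 27 gap positions). The last 2 percentages depend on where the gaps were placed and do not rank the pairs. No window of 75 bases, the read length, in the exons of any of the 34 genes occurred elsewhere in the TAIR10.1 genome, so an exact read of this length has 1 place to map.

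Expression is given as TPM, a relative transcript abundance that divides reads by gene length and scales each sample to the same sum. The values multiplied by exon length were whole multiples of 1 step per sample for 99.4% of values, within a tolerance of 0.05, and this step was taken as 1 read. Depth was then 61863730 to 99089586 reads in the Mock samples and 51879530 to 63161898 in the SNP samples. Differences were tested with limma on log2(TPM + 0.5) for 18966 genes, those that averaged 0.5 TPM or more across the 6 samples, and the added 0.5 shrinks the fold changes of scarce transcripts. Following the study's criterion, a gene rose or fell when its fold change was at least 1.5 with an unadjusted p under 0.01. Benjamini-Hochberg adjusted p-values are over all tested genes.

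By this criterion 8 of the 19 tested genes rose after SNP and 0 fell, whereas 10.5% of all tested genes rose and 6.4% fell. At an adjusted p under 0.05, 10 were higher and 0 lower, against 16.6% and 13.0% of all tested genes. The median log2 fold change was 0.59 for the 19 genes and 0.06 for all tested genes. In 15 of the 19 the Mock and SNP values did not overlap, as was the case for 51.2% of all tested genes. The 19 are those expressed enough to be tested and do not stand for all 34. *FRD3* averaged under 0.5 TPM in Mock and passed the filter through its SNP values alone, and without it 7 of 18 rose, with a median of 0.57. For each gene whose groups were apart the exact two-sided permutation test gave p = 0.1, the smallest that 3 samples against 3 can give.

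**Figure D1:**
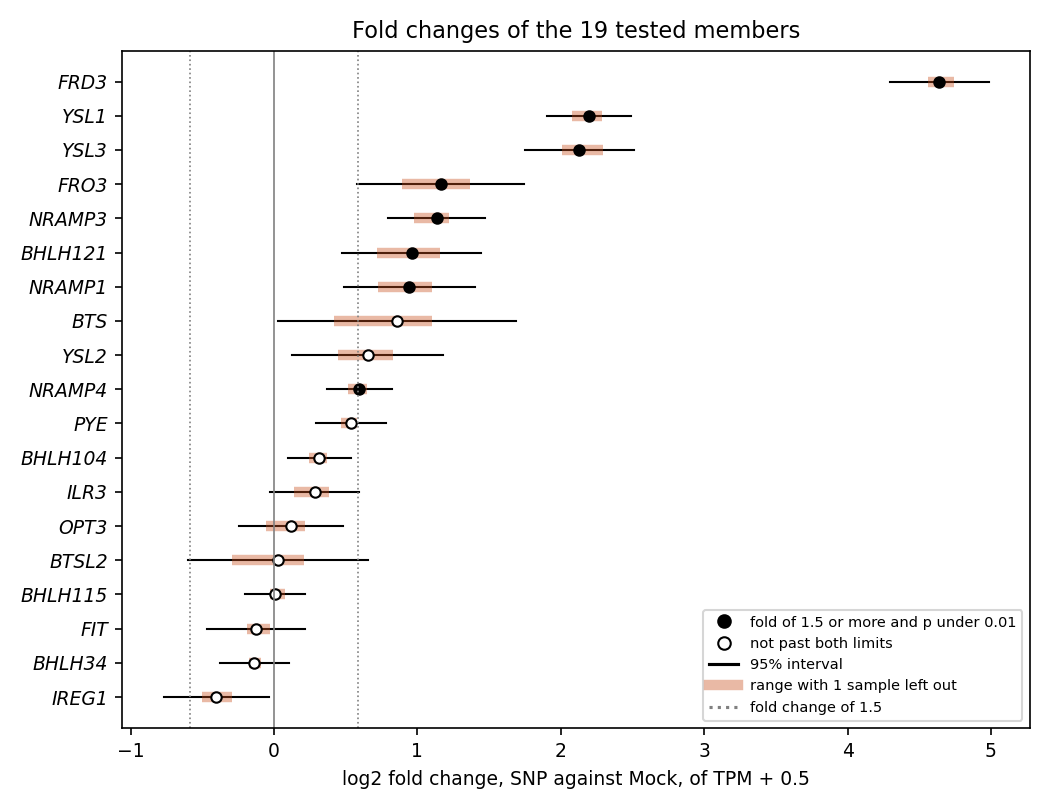
Log2 fold change, SNP against Mock, of TPM + 0.5 for each of the 19 tested genes, with the 95% limma interval (line) and the range obtained with 1 sample left out (orange bar); filled points passed the criterion and dotted lines mark a fold change of 1.5. *FRD3* stands apart at 4.64, *YSL1* and *YSL3* follow at 2.20 and 2.13, and *IREG1* is lowest at -0.40.

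By role, 1 of 9 tested regulators rose, *BHLH121*, a share of 11.1% that is near the 10.5% of all tested genes. At a limma adjusted p under 0.05, 3 of the 9 were higher, *BHLH121*, *PYE* and *BHLH104* (33.3%, against 16.6% of all tested genes). The median log2 fold change of the 9 was 0.28. Among genes of reduction, chelation and transport 7 of 10 rose (70.0%), *FRD3* included, with a median of 1.04. The same 7 were higher at a limma adjusted p under 0.05. The difference between these counts was not tested.

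*FIT* (AT2G28160) encodes the bHLH factor that drives iron uptake in roots. It was low in the apices, at 1.63, 1.70 and 1.84 TPM in Mock replicates 1, 2 and 3 and 1.72, 1.28 and 1.64 TPM in SNP replicates 1, 2 and 3. The groups overlapped, and the log2 fold change was -0.13 (SE 0.14, limma adjusted p = 0.544). *BHLH39* and *BHLH101*, the subgroup Ib partners of FIT with values, stayed below the filter and are described with the other low genes.

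The subgroup IVc factors activate the Ib genes, and one of them, *ILR3* (AT5G54680), was the most abundant regulator in both groups. It stood at 100.1, 140.2 and 129.7 TPM in Mock and 151.2, 149.8 and 145.0 TPM in SNP. The SNP samples lay above every Mock sample, but the log2 fold change of 0.28 (SE 0.13) did not pass (limma adjusted p = 0.146). It was 0.14 without Mock replicate 1, the lowest of the Mock samples. *BHLH115* (AT1G51070) had 82.8, 72.0 and 71.3 TPM in Mock and 77.6, 76.1 and 73.3 TPM in SNP. These ranges overlapped, and the interval of the log2 fold change ran from -0.20 to 0.22 (limma adjusted p = 0.957).

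*BHLH104* (AT4G14410) had 40.9, 39.2 and 34.2 TPM in Mock and 48.7, 47.9 and 45.9 TPM in SNP. All SNP samples were higher, with a log2 fold change of 0.32 (SE 0.09, limma adjusted p = 0.0425) that lay under the fold limit. The adjusted p stayed under 0.05 in 6 of 16 alternative settings. *BHLH34* (AT3G23210), the least abundant of the subgroup, had 10.03, 8.92 and 9.31 TPM in Mock and 8.64, 8.16 and 8.74 TPM in SNP. Every SNP sample was lower, by less than the test required, with a log2 fold change of -0.14 (SE 0.10, limma adjusted p = 0.345).

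The subgroup IVb factors of the set, *BHLH121* and *PYE*, were both higher in every SNP sample. *BHLH121* (AT3G19860), also called URI, pairs with the IVc factors to switch on iron deficiency genes. It stood at 28.0, 51.6 and 41.5 TPM in Mock and 79.4, 75.2 and 75.2 TPM in SNP. The mean rose from 40.4 ± 11.9 to 76.6 ± 2.41 TPM (SD, n = 3 each), a fitted fold change of 1.94 (log2 0.96, SE 0.21, limma adjusted p = 0.0140). The spread lay on the Mock side, and the log2 fold change was between 0.72 and 1.16 with any 1 sample left out.

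*PYE* (AT3G47640) encodes a bHLH repressor of iron transport genes. It had 9.82, 9.50 and 8.30 TPM in Mock and 13.5, 13.6 and 13.5 TPM in SNP. The means were 9.21 ± 0.80 and 13.5 ± 0.027 TPM (SD, n = 3 each), and the fitted fold change of 1.45 (log2 0.54, SE 0.10, limma adjusted p = 0.00964) fell just short of the fold limit. *PYE* lay under the fold limit in all 16 alternatives and kept an adjusted p under 0.05 in 15 of them.

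*BTS* (AT3G18290) encodes the iron-binding hemerythrin ligase that restrains the deficiency response. It had 11.04, 27.8 and 29.4 TPM in Mock and 34.1, 42.8 and 38.6 TPM in SNP. Every SNP sample was higher, but Mock replicate 1 stood far below its group, and the log2 fold change of 0.86 (SE 0.35) did not pass (limma adjusted p = 0.108). Without Mock replicate 1 it was 0.42, under the fold limit, with an adjusted p of 0.0185. Its relative *BTSL2* (AT1G18910) had 2.68, 5.58 and 5.87 TPM in Mock and 4.63, 4.64 and 4.46 TPM in SNP. The SNP values lay within the Mock range, and the log2 fold change was 0.03 (SE 0.27, limma adjusted p = 0.945), or -0.29 without Mock replicate 1.

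**Figure D2:**
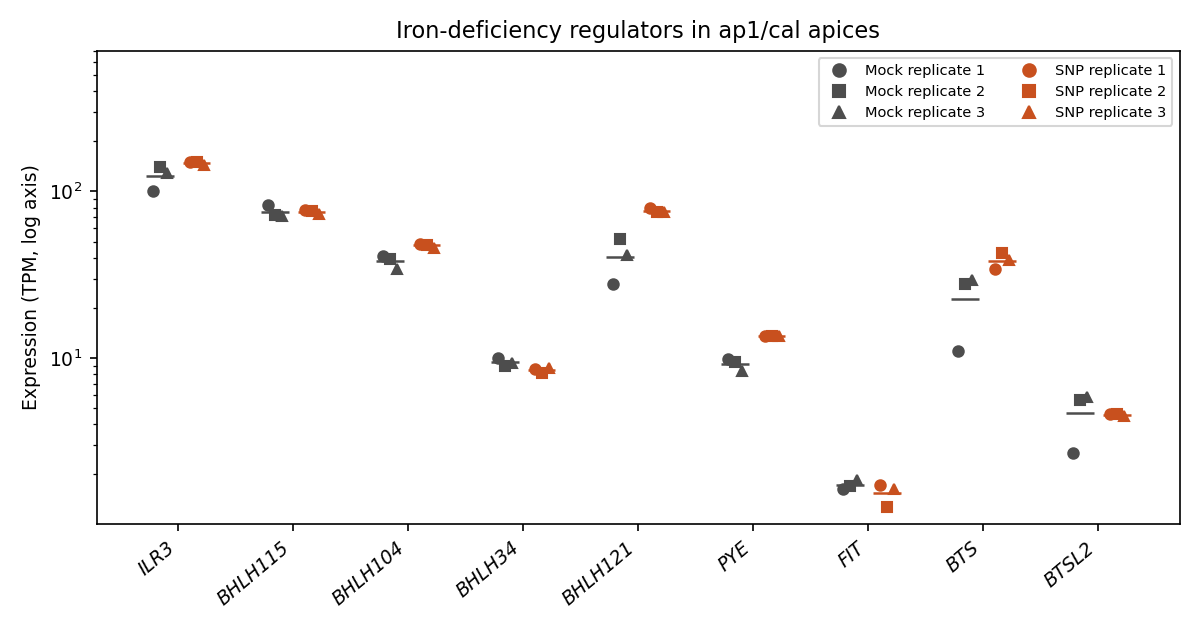
Expression in TPM (log axis) of the 9 tested regulators in each Mock sample (grey) and SNP sample (orange), with horizontal lines for group means. The SNP points of *BHLH121*, 75.2 to 79.4 TPM, lie above Mock points that range from 28.0 to 51.6 TPM, and Mock replicate 1 is the low point for *BTS* and *BTSL2*.

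The promoters were searched for letters known from bHLH binding. The G-box CACGTG, a palindrome bound by many bHLH proteins, was looked for in the 300 bases before each annotated start in TAIR10.1. Among genes with values it occurred in 2 of 31, *BTS* and *OPT3* (6.45%), and in 7.53% of 24183 promoters of genes in the table, so its share was near the background. *BHLH38* and *BHLH100* also held it. None of the 8 genes that rose had these letters in this window. *BTS* held the motif 3 times, 146, 124 and 70 bases before the start, and this stretch is shown because it holds all of them (chr3:6273810-6273911, plus strand, TAIR10.1 from RefSeq, motif in capitals).
BTS promoter: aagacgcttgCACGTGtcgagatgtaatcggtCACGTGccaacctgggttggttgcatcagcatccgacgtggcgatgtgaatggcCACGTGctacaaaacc
A match to the letters is a description of the sequence and does not show that a factor binds there.

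Among the genes of reduction and transport, *FRD3* changed most. *FRD3* (AT3G08040, 12 exons, chr3:2566196-2569700 on the minus strand) encodes the citrate exporter that keeps iron soluble in the xylem. It had 0.20, 0.26 and 0.16 TPM in Mock and 14.6, 18.9 and 17.9 TPM in SNP, that is 18, 29 and 21 reads against 1250, 1296 and 1518 reads. The groups did not approach each other, and the mean TPM was 83.3 times as high in SNP. The fitted log2 fold change was 4.64 (SE 0.15, fitted fold 24.9, limma adjusted p = 1.0e-05), which ranked 20 of 18966 from the largest increase. It entered the test because of its level in SNP, since its Mock mean of 0.206 TPM lay below the filter. Its size depended on the pseudocount, from 3.90 to 5.82 over the alternatives, and its call did not.

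*YSL1* and *YSL3* encode metal-nicotianamine transporters that act together in loading iron into leaves and seeds. *YSL1* (AT4G24120) had 8.09, 10.99 and 10.07 TPM in Mock and 45.0, 46.5 and 46.9 TPM in SNP. Its mean rose from 9.72 ± 1.48 to 46.1 ± 1.02 TPM (SD, n = 3 each), a fitted fold change of 4.60 (log2 2.20, SE 0.12, limma adjusted p = 8.6e-05). *YSL3* (AT5G53550) had 8.31, 11.4 and 7.43 TPM in Mock and 38.4, 44.1 and 39.5 TPM in SNP. It rose 4.37-fold (log2 2.13, SE 0.16, limma adjusted p = 0.000254), so both genes started near 10 TPM and ended above 38 TPM. They ranked 274 and 293 among the 18966 increases, and both passed in all 16 alternatives.

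*YSL2* (AT5G24380), a further transporter of this family, was scarce, with 0.73 to 1.05 TPM in Mock and 1.19 to 2.38 TPM in SNP. The SNP samples were all higher, but the log2 fold change of 0.65 (SE 0.22) did not pass (limma adjusted p = 0.0651). Without SNP replicate 1, the lowest of its group, it was 0.83 and passed, with an adjusted p of 0.0485. *OPT3* (AT4G16370), which loads iron into the phloem, overlapped between groups at 23.0 to 33.9 TPM in Mock and 30.8 to 32.8 TPM in SNP. Its log2 fold change was 0.12, with an interval from -0.25 to 0.48 (limma adjusted p = 0.594), and became -0.06 without Mock replicate 1.

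All 3 NRAMP genes of the set rose. *NRAMP3* (AT2G23150) and *NRAMP4* (AT5G67330) encode exporters that release iron from the vacuole, and *NRAMP1* (AT1G80830) a manganese and iron importer of the plasma membrane. *NRAMP3* had 27.8, 39.5 and 38.7 TPM in Mock and 78.4, 74.5 and 78.8 TPM in SNP. It rose 2.19-fold (log2 1.13, SE 0.14, limma adjusted p = 0.00193) and was the most abundant transport gene of the set after SNP. *NRAMP1* had 8.01, 13.8 and 12.1 TPM in Mock and 22.3, 20.3 and 22.6 TPM in SNP, and rose 1.92-fold (log2 0.94, SE 0.19, limma adjusted p = 0.0121).

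*NRAMP4* had 26.2, 31.6 and 30.5 TPM in Mock and 44.3, 45.7 and 43.7 TPM in SNP. The groups were apart, and the fitted fold change of 1.51 (log2 0.59, SE 0.10, limma adjusted p = 0.00517) lay just above the limit of 1.5, as that of *PYE* lay just below it. The criterion was met in 11 of 16 alternatives and lost under median-of-ratios scaling (log2 0.54), 75th percentile scaling (0.50), removal of the length trend (0.51), without Mock replicate 1 (0.51) and without SNP replicate 2 (0.58). The adjusted p was under 0.05 in all 16.

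*FRO3* (AT1G23020) encodes a mitochondrial ferric reductase. It had 1.34, 3.02 and 2.40 TPM in Mock and 6.003, 5.61 and 4.78 TPM in SNP, with 149 to 627 reads per sample. It rose 2.24-fold (log2 1.16, SE 0.25, limma adjusted p = 0.0133) and by 0.90 on the log2 scale without Mock replicate 1. *IREG1* (AT2G38460), a ferroportin that loads iron into the xylem, went the other way, with 3.14, 3.94 and 3.46 TPM in Mock and 2.104, 2.96 and 2.57 TPM in SNP. Its log2 fold change of -0.40 (SE 0.16, limma adjusted p = 0.0938) did not pass, although all SNP samples were below all Mock samples.

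**Figure D3:**
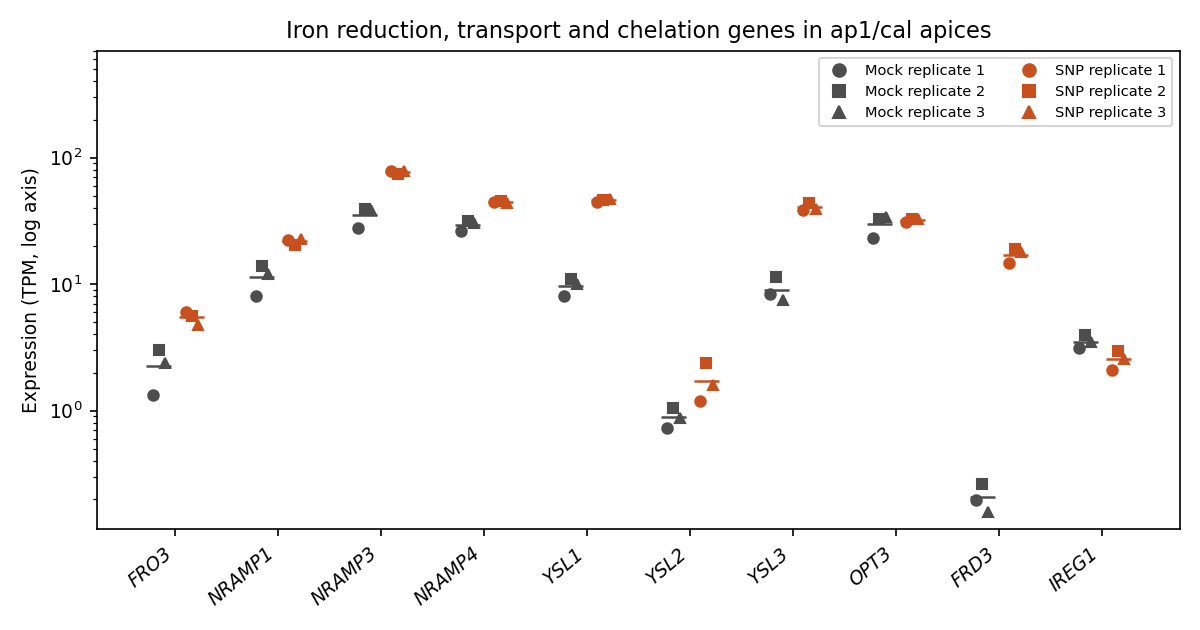
Expression in TPM (log axis) of the 10 tested genes of reduction, chelation and transport in each Mock sample (grey) and SNP sample (orange), with horizontal lines for group means. *FRD3* moves from 0.16 to 0.26 TPM in Mock to 14.6 to 18.9 TPM in SNP, while *OPT3* overlaps and *IREG1* is lower in SNP.

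The 12 genes below the filter were read from the recovered reads, for which ratios are per read of the sample group and intervals are 95% and cover counting error only. Mock replicates together held 242603105 reads and SNP replicates 177998489. Where a group had no read, "at least" gives the ratio to a floor of 3 reads over that group. The reads of the other group were taken as counted, so these bounds are not 95% limits and cannot be compared with the intervals. Since these genes were too low for the test across all genes, a fit without the filter is given where it bears on them.

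The IMA peptides, which protect the IVc factors from BTS, had reads in Mock samples alone. *IMA1* had 6, 6 and 36 reads in Mock and 0 in each SNP sample, at least 11.7-fold lower. *IMA2* had 12, 6 and 90 reads in Mock and 0 in SNP, at least 26.4-fold lower. *IMA3* had 4, 2 and 15 reads in Mock and 0 in SNP, at least 5.14-fold lower. All Mock counts of *IMA1* and *IMA2* were multiples of 6, for a reason that was not tested. If these reads do not count separately, the bounds of both genes are too large.

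Mock replicate 3, the most deeply sequenced sample, held 36 of the 48 Mock reads of *IMA1*, 90 of the 108 of *IMA2* and 15 of the 21 of *IMA3*. In TPM, which scales for depth, it was also the highest Mock sample for all 3 genes. *IMA1* had 0.79 TPM there against 0.19 and 0.16 in Mock replicates 1 and 2. The values were 1.84 against 0.36 and 0.15 for *IMA2*, and 0.13 against 0.05 and 0.02 for *IMA3*. Without Mock replicate 3 the bounds were 4.96-fold, 7.44-fold and 2.48-fold lower. With any 1 sample left out, an analysis chosen after the data were seen, these were the smallest bounds, and the largest were 15.5-fold, 37.6-fold and 7.0-fold. In the limma fit without the filter *IMA1*, *IMA2* and *IMA3* had log2 fold changes of -0.75, -1.13 and -0.18, and none passed (adjusted p = 0.0797, 0.124 and 0.136).

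Of the Ib factors with values, *BHLH39* had fewer reads in SNP and *BHLH101* more, the second without passing a test. *BHLH39* (AT3G56980) had 17, 12 and 19 reads in Mock and 0, 1 and 0 in SNP, a ratio of 0.0284 (0.000704 to 0.166). It was lower in every SNP sample and was the only gene of the 12 to pass without the filter, at a log2 fold change of -0.60 (SE 0.08, limma adjusted p = 0.00364). *BHLH101* (AT5G04150) had 1, 0 and 2 reads in Mock and 17, 2 and 7 in SNP, a ratio of 11.8 (3.62 to 61.0). SNP replicate 1 held 17 of its 26 SNP reads, and the ratio was 6.33 without that sample, 7.84 without Mock replicate 2 and 21.0 without Mock replicate 3. Its lowest SNP sample held as many reads as its highest Mock sample, although the TPM values were apart, and the fit without the filter gave 0.44 (limma adjusted p = 0.115).

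The nicotianamine synthases, which make the chelator carried by the YSL transporters, were at a few reads per sample. *NAS1* (AT5G04950) had 0 reads in Mock and 0, 5 and 16 in SNP, at least 9.54-fold higher over the group. SNP replicate 3 held 16 of these 21 reads, and the bound was 3.52-fold without it and 5.64-fold to 14.8-fold without any other sample. *NAS3* (AT1G09240) had 0 reads in Mock and 2, 1 and 4 in SNP, at least 3.18-fold higher. The bound was 2.11-fold without Mock replicate 2 and 1.88-fold without Mock replicate 3, and without SNP replicate 3 only the floor of 3 reads was left. *NAS4* (AT1G56430) had 26, 12 and 39 reads in Mock and 8, 13 and 6 in SNP, a ratio of 0.478 (0.296 to 0.75) with groups that overlapped. None of these passed without the filter (limma adjusted p = 0.196, 0.105 and 0.235). With 0.5 added, *NAS1* and *NAS3* had log2 fold changes of 0.33 and 0.13, under the fold limit although Mock was at 0. For these genes the criterion cannot separate a change from none.

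The genes of root uptake were almost without reads in these shoot samples. *IRT1* (AT4G19690) had 0 reads in the Mock samples and 1 read, in SNP replicate 3. *FRO2* (AT1G01580) had 2, 1 and 8 reads in Mock and 1, 0 and 0 in SNP, a ratio of 0.124 (0.00288 to 0.852) with overlapping groups. Mock replicate 3 held 8 of its 11 Mock reads, and the ratio was 0.269 without it. *IREG2* (AT5G03570), a vacuolar ferroportin of the root, had 0, 6 and 3 reads in Mock and 0, 3 and 1 in SNP, a ratio of 0.606 (0.136 to 2.17). *BTSL1* (AT1G74770), a ligase related to BTS, had 8, 17 and 29 reads in Mock and 14, 18 and 21 in SNP, a ratio of 1.34 (0.898 to 1.99). A difference in *IREG2* or *BTSL1* was not detectable at this depth.

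**Figure D4:**
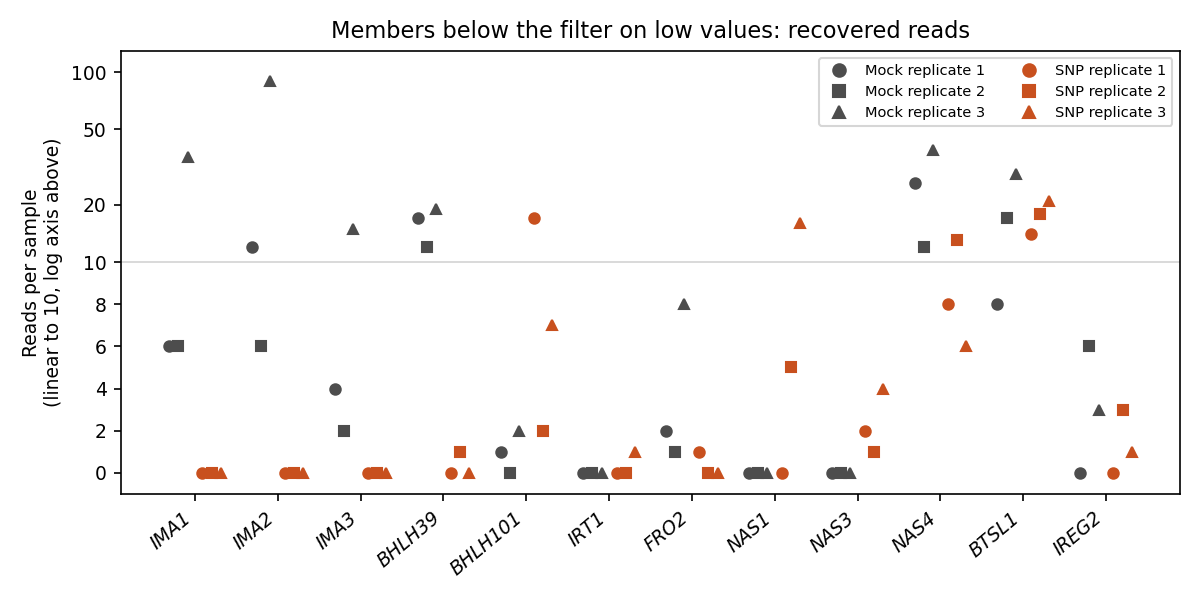
Recovered reads per sample of the 12 genes below the filter (linear axis to 10, logarithmic above) in Mock samples (grey) and SNP samples (orange). *IMA1*, *IMA2* and *IMA3* have reads in each Mock sample and 0 in each SNP sample, and *NAS1* and *NAS3* have reads in SNP samples alone.

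Genes on the opposite strand overlap *ILR3*, *BHLH115*, *BHLH101*, *BTSL1*, *BTSL2*, *IMA3*, *FRO3*, *YSL2*, *NRAMP1* and *IREG2* in the TAIR10.1 annotation. The libraries kept strand, but the strand setting of the counting was not given in the sources used here, so the values of these genes may include reads of their neighbours. *LPR1* (AT1G23010), the neighbour of *FRO3*, was itself higher after SNP (log2 fold change 2.08, limma adjusted p = 0.000429). Its part in the rise of *FRO3* was not tested, and the other neighbours were not compared.

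Mock replicate 1 differed from the other Mock samples along gene length. In the longest class of genes, 2595 to 16614 bases of exon, its median deviation from the mean of all samples was -0.43 on the log2 scale, against 0.04 to 0.14 in the other samples. It was the lowest Mock sample for 13 of the 19 tested genes (68.4%) and for 55.3% of all tested genes. Against the mean of the other Mock samples *BTS* was lower by 1.33 on the log2 scale, *BTSL2* by 0.97, *FRO3* by 0.80 and *BHLH121* by 0.72, while *FRD3* differed by 0.02. *BHLH121*, *FRO3*, *NRAMP1*, *NRAMP3*, *YSL1*, *YSL3* and *FRD3* passed the criterion without this sample, and *NRAMP4* did not.

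**Figure D5:**
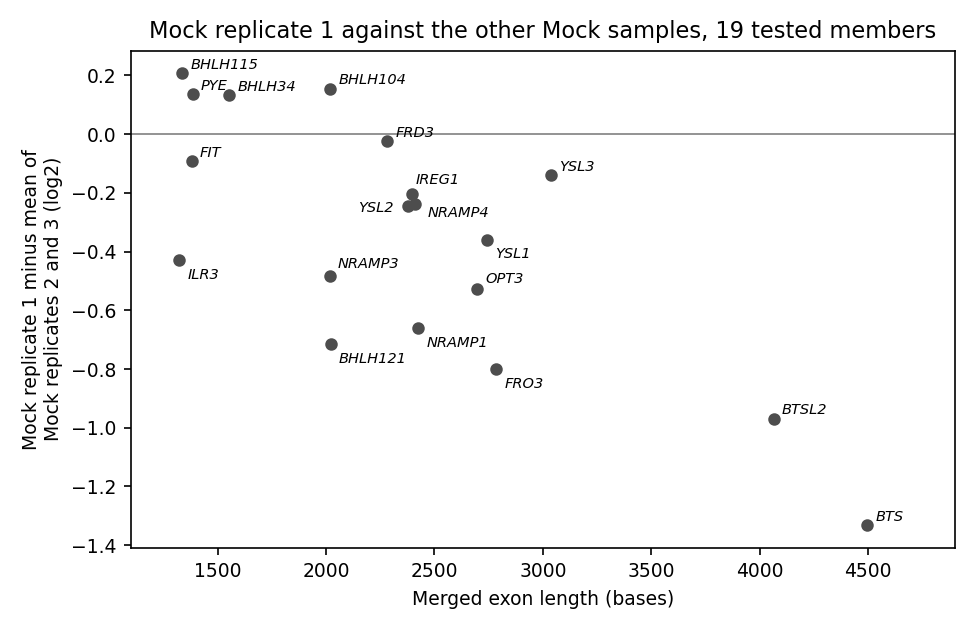
Difference of Mock replicate 1 from the mean of Mock replicates 2 and 3 (log2 of TPM + 0.5) against merged exon length in bases for the 19 tested genes. *BTS*, with 4495 bases, lies lowest at -1.33 and *BTSL2*, with 4064 bases, next at -0.97.

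The spread of the Mock samples was wider than that of the SNP samples. The median SD on the log2 scale was 0.22 in Mock and 0.05 in SNP over the 19 genes, and 0.19 and 0.09 over all tested genes. The summed level of the set was 395.2 to 505.6 TPM in Mock and 697.8 to 713.6 TPM in SNP.

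Other genes of iron and metal supply were counted from lists outside the set, to be read against the 10.5% of all tested genes that rose and the 6.4% that fell. Of 18 further genes of iron acquisition and its control, 11 were tested and 3 rose (27.3%), with a median log2 fold change of 0.36. Those that rose were *AHA2*, a proton pump (1.74-fold), *F6H1*, an enzyme of coumarin synthesis (3.73-fold), and the bHLH regulator *BHLH20* (3.02-fold). This list holds regulators beside enzymes and transporters, so its count does not give a direction of iron uptake. Of 14 tested relatives from the reductase and transporter families 2 rose, the reductase *FRO6* (2.29-fold) and the mitochondrial carrier *MIT2* (1.75-fold), a share of 14.3% with a median of 0.23. Of 7 tested copper genes 1 rose, the copper importer *COPT1* (1.61-fold, 14.3%), and of 8 tested zinc genes 0 rose and 0 fell. The limma adjusted p of the named genes lay between 0.00128 for *MIT2* and 0.0356 for *F6H1*. Of 7 tested iron storage genes 6 rose, the ferritins *FER1*, *FER3* and *FER4* and the vacuolar iron transporter-like *VTL1*, *VTL2* and *VTL5*, with a median of 1.68. *F6H1*, *VTL1*, *VTL2* and *VTL5* averaged under 0.5 TPM in Mock and passed the filter through their SNP values. Without the VTL genes 3 of 4 storage genes rose, with a median of 0.88. Without *F6H1* 2 of 10 genes of the acquisition list rose, with a median of 0.28. The *F6H1* values were uneven in SNP, at 7.38, 1.22 and 2.905 TPM in replicates 1, 2 and 3. *FER1* rose 47.1-fold and *FER4* 1.63-fold by the fit.

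Marker genes were measured beside these results, since fewer cells of a type and less RNA per cell cannot be told apart in bulk samples. Summed meristem markers were at 327.4 to 388.4 TPM in Mock and 325.3 to 372.1 TPM in SNP, so the defining genes of the labelled tissue were present in both groups. By the criterion 1 of 7 rose, *UFO* (1.60-fold). *WUS* was lower in every SNP sample but did not pass (means 3.63 and 2.48 TPM, log2 fold change -0.46, limma adjusted p = 0.0916). The other markers overlapped between groups. *STM* alone averaged 125.6 TPM in Mock, so the sum does not follow *WUS*. Summed vascular markers overlapped, at 143.1 to 174.0 TPM and 168.2 to 177.5 TPM, and 1 of 6 rose, the phloem sucrose transporter *SUC2* (log2 fold change 1.07), while *WOX4* and *TMO5*, of the cambium and early vascular cells, had log2 fold changes of -0.57 and -0.32 at limma adjusted p = 0.00727 and 0.0315. Of the root markers 1 of 5 with values was tested and 0 passed, and the other 4 had a mean under 0.5 TPM. The tested marker was *GL2*, at means of 15.7 TPM in Mock and 19.9 TPM in SNP with overlapping groups. Its level alone does not show that root cells were present.

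Green tissue markers summed to 2629 to 3520 TPM in Mock and 3169 to 3913 TPM in SNP. Most of this sum was *RBCS1A*, at 1847 to 2670 TPM in Mock and 2482 to 3128 TPM in SNP. By the criterion 1 of 5 fell, *LHCB2.1* (fitted ratio 0.54), and the median log2 fold change of the 5 was -0.322. *PSAD1* was also lower in every SNP sample, at -0.322 (limma adjusted p = 0.023). The groups overlapped for *LHCB1.1* (-0.644), *RBCS1A* (0.326) and *RCA* (0.204). Senescence markers summed to 10.8 to 15.2 TPM in Mock and 49.5 to 54.6 TPM in SNP, and 3 of 4 with values rose, *SAG13* (9.30-fold), *ORE1* (10.4-fold) and *NAP* (8.38-fold), of which *ORE1* passed the filter through its SNP values. The part of the *SUC2* and senescence changes in those of *FRD3*, *YSL1*, *YSL3* and the NRAMP genes was not tested.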

How the data were processed

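RNA-seq was analysed for 3 Mock and 3 SNP samples of *ap1/cal* shoot apices, grouped by their labels. The authors mapped strand-specific reads with STAR (TAIR10) and deposited 1 TPM value for each gene and sample. They also deposited a log2 fold change, a p-value and an adjusted p-value per gene from their own comparison, which were not used. The methods name DEGseq for that comparison and the submitters' processing notes name FastQC, STAR and DESeq2. The counting tool, gene lengths and gene filter were not given in the sources used here. Every value column was mapped to a sample.

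Genes averaging 0.5 TPM or more were fitted with limma 3.58.1 (lmFit, eBayes with trend) in R 4.3.3 on log2(TPM + 0.5), with no block and Benjamini-Hochberg adjustment over 18966 genes. The fit was checked on simulated data. TPM was used in place of a count model because no counts were read as such. Whole reads recovered with TAIR10.1 merged exon lengths, available for 24184 genes, served for depth and for genes below the filter, with exact (Clopper-Pearson) 95% intervals. Reads without molecular identifiers are not independent molecules, so intervals cover counting error only, and floors only that of the group without reads. Tables used Python 3.11.15, numpy 2.4.6 and pandas 2.3.3.

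Members and lists were chosen with earlier results of these data known. Values in all samples are given for each member past the criterion or at an adjusted p under 0.05, each regulator above the filter and each gene below the filter whose groups were apart. Genes of other lists are named where they passed the criterion, and some others are named beside them. Alternatives were other pseudocounts (0.1 and 1), other filters (none and 1 TPM), scaling by median-of-ratios and by the 75th percentile, eBayes untrended and robust, a replicate block, removal of each sample's length trend (lowess span 0.3), a fold change of 2 and leaving out each sample.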

Additional observations from a re-analysis of the deposited data

How the results depend on the processing

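Of 316 comparisons of a tested or unfiltered member with 16 alternatives, 296 kept direction and side of the criterion, 5 lost the call, 5 gained it and 10 reversed. The losses were all of *NRAMP4*. The gains were *BTS* with the replicate block (0.86) and without the length trend (0.65), *YSL2* with the replicate block (0.65) and without SNP replicate 1 (0.83), and *BHLH39* without the filter. The reversals concerned genes near 0: *BHLH115* under median-of-ratios (-0.047) and 75th percentile scaling (-0.083) and over -0.030 to 0.077 with 1 sample left out, *BTSL2* under the same scalings (-0.018 and -0.050), without the length trend (-0.159) and over -0.293 to 0.208 with 1 sample left out, and *OPT3* over -0.057 to 0.218. A fold limit of 2 left 5 members higher. Without the filter 1 member was lower by the criterion. By adjusted p, 1 member was lower without the filter (*BHLH39*), and 1 under each scaling and without the length trend (*IREG1*), and 6 to 11 were higher with 1 sample left out, 6 without SNP replicate 3. Of all calls, 62.1% were increases in the analysis reported and 51.0% under 75th percentile scaling. Same-numbered samples deviated together at r = 0.304, -0.002 and -0.091, and not every sample deviated most with its own number. Deviations from the mean of so few samples depend on each other, so these values cannot decide whether the numbers pair the samples. The replicate block gave 10 members higher by the criterion and 11 by adjusted p. The causes of these differences were not tested. Depth limits the 12 members below the filter, which had at most 90 reads in a sample.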
